A study of Mus musculus with 6 samples.

Results

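The serpins and the proteins of blood clotting and clot breakdown were examined in mouse marrow cells marked by a reporter for stem cell factor (Scf-GFP+), with whole bone marrow as the reference. Members were all genes whose only symbol in the array annotation begins with Serpin, and 25 named genes of coagulation and fibrinolysis. Of the named genes 24 had an array row of their own, and with 48 serpins they gave 72 members among 19938 genes tested. The remaining named gene, Klkb1, shares its row with another gene and was not analysed here, and neither were 5 serpin rows that the annotation assigns to several genes.

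Scf-GFP+ cells carry a green fluorescent protein knocked into the gene for stem cell factor, Kitl, a cytokine that blood stem cells need. They came from mice heterozygous for the knock-in and were double-sorted, whereas whole bone marrow cells came from wild-type mice. Both groups were young adults on a C57BL/6 background, and each of the 6 arrays, 3 per group, carried amplified RNA from 5000 sorted cells. The Scf-GFP+ cells therefore had a modified Kitl allele that the controls lacked, and population, genotype and sorting cannot be told apart. By the sex-linked genes given below, some Scf-GFP+ arrays also differed from whole marrow in sex, which cannot be told apart from the rest there. The comparison asks which transcripts distinguish the cells that make stem cell factor from the marrow around them.

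Serpins are a family of proteins that mostly inhibit proteases, by offering a bait loop that traps the protease in an inactive complex. Several members have lost this activity and serve as chaperones, hormone carriers or secreted signals. Blood clots when tissue factor starts a chain of protease precursors that ends in thrombin, which turns fibrinogen into fibrin, and plasmin later dissolves the fibrin. Most circulating clotting factors are made by the liver, whereas the receptors, the cell-bound anticoagulants and some factors are made by vessel wall and blood cells.

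The arrays matched their labels in the markers examined, with some differences between replicates that touch the results below. The mean log2 value of 5 stromal genes (Kitl, Cxcl12, Lepr, Pdgfra, Pdgfrb) lay between 11.40 and 11.53 on the Scf-GFP+ arrays and between 5.76 and 5.84 on the whole marrow arrays. All 5 were called higher. All 4 pan-haematopoietic genes were called lower, with means of 5.83 to 6.79 against 9.65 to 10.12. The mean of 8 neutrophil genes was 9.10 on the array of Scf-GFP+ replicate 1 and 5.56 and 5.75 on those of replicates 2 and 3, against 11.92 to 12.02 in whole marrow. Xist, the RNA that coats the inactive X chromosome in females, was high on 2 arrays, Scf-GFP+ replicate 1 (11.50) and replicate 2 (11.81), whereas the other 4 arrays gave 4.99 to 5.10. The Y-linked gene Eif2s3y gave 4.41 and 3.72 on those 2 arrays and 7.33 to 8.23 on the other 4. Scf-GFP+ replicates 1 and 2 thus had a female pattern, and replicate 3 and all whole marrow arrays a male one. No hepatocyte gene of 8 examined, among them albumin (Alb), was called, and their mean lay between 5.28 and 5.46 on all arrays.

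Among the 72 members, Scf-GFP+ cells had 7 with a higher and 8 with a lower value than whole marrow, or 20.8% called, at a limma adjusted p below 0.05 and at least a 2-fold difference. Among all genes tested 16.9% were called, 9.01% higher and 7.89% lower, so the share of members called was near the background. The members called higher were Serping1, Serpina3n, Pros1, Tfpi, Serpinf1, Serpinh1 and Serpinb6a. Those called lower were Serpinb1a, Plaur, F13a1, F10, Serpinb2, Serpinb6b, Serpinb10 and F5. All 15 had groups that did not overlap, which the call rule itself makes likely, and 7 of the 15 differed by at least 8-fold. Of all genes, called or not, 45.4% had groups that did not overlap. Over all members, called or not, the groups did not overlap in 11 that were higher and 29 that were lower, beside 19.0% and 26.4% of all genes. The median difference over the 72 members was -0.13 on the log2 scale, beside -0.08 over all genes.

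**Figure D1:**
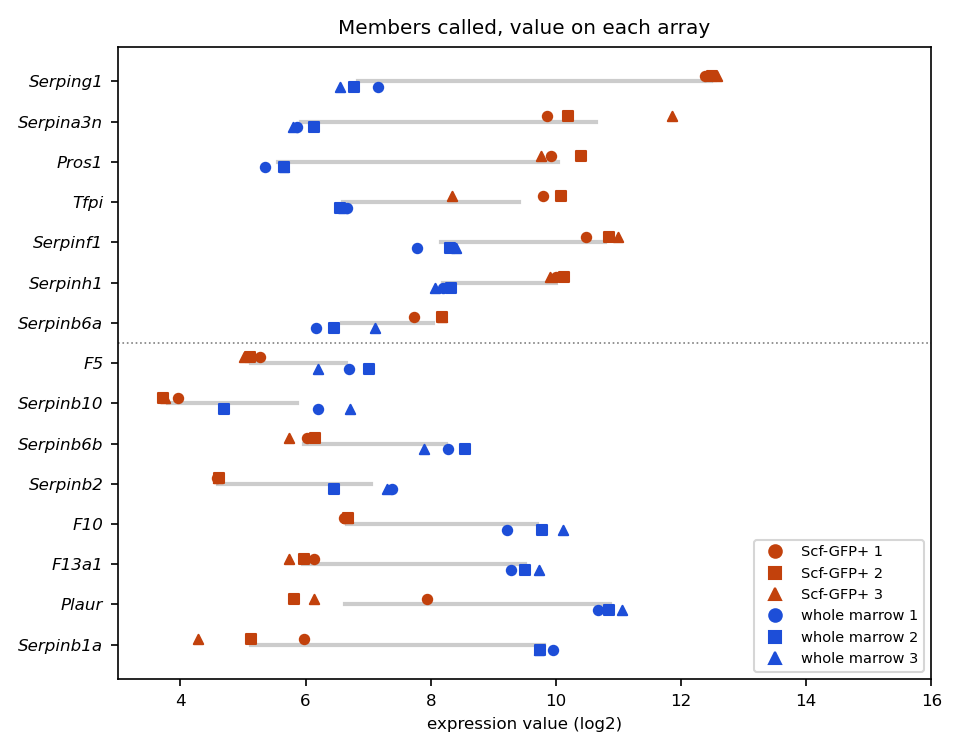
Log2 expression value (horizontal axis) of the 15 called members on each array, with Scf-GFP+ arrays in orange, whole marrow arrays in blue, a symbol shape for each replicate and a grey bar joining the group means. Members above the dotted line were higher in Scf-GFP+ cells and those below it lower, and Serpina3n, Tfpi, Plaur and Serpinb1a were spread most widely among the Scf-GFP+ arrays.

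The other 57 members were not called. The 95% confidence interval of the difference, not adjusted for the number of genes, lay within 2-fold in either direction for 50 of them. Of all members, 48 were among the dimmest 30% of genes by mean over the 6 arrays, where an array resolves differences poorly, and 3 of these (F5, Serpinb2 and Serpinb10) were called lower. Adjusted p alone, with no fold threshold, was passed by 10 members on the higher and 15 on the lower side, and by 27.0% of all genes. Of these, 3 higher (Thbd, Tfpi2 and Serpinb9) and 7 lower (Serpini1, F3, Plau, F2r, Serpinb5, Serpina11 and Serpinb8) stayed under 2-fold. In RNA from a cell mixture, fewer cells of a type and less RNA per cell cannot be told apart.

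**Figure D2:**
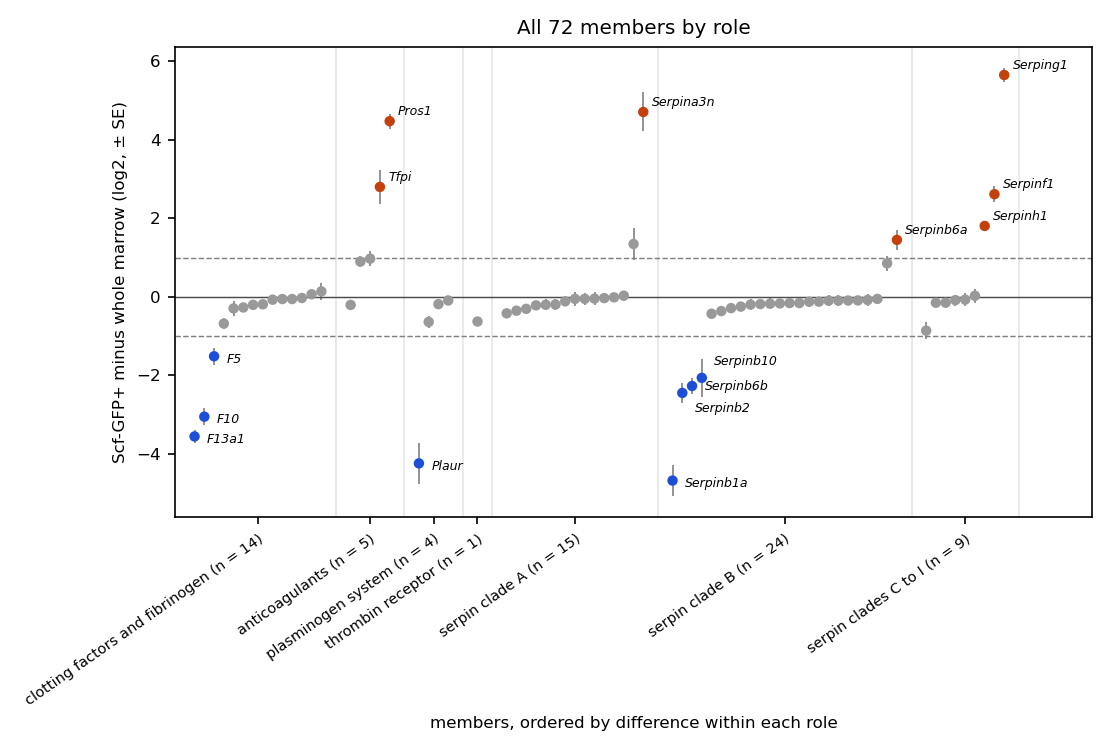
Difference between Scf-GFP+ cells and whole marrow on the log2 scale (vertical axis, ± SE, n = 3 arrays per group) for all 72 members, grouped by role and ordered by size within each role. Orange and blue points were called higher and lower, grey points were not called, and the dashed lines mark 2-fold. Most members of every large role group lie near 0. The 3 called of 14 clotting factors and fibrinogen chains lie below it and the 2 called of 5 anticoagulants above it. Anticoagulant serpins such as antithrombin (Serpinc1), which was not called, are counted in their clades.

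Among 14 clotting factors and fibrinogen chains, 3 were called lower and none higher in Scf-GFP+ cells. Over all genes tested 9.01% were called higher and 7.89% lower, and these shares apply beside every role and list count below. No role or list was tested as a set. Factor XIII A chain (F13a1), the transglutaminase subunit that crosslinks fibrin and that monocytes, macrophages and megakaryocytes also make, measured 6.14, 5.98 and 5.74 in Scf-GFP+ cells and 9.28, 9.51 and 9.73 in whole marrow. This was an 11.7-fold difference (-3.55 ± 0.16 SE on the log2 scale, limma adjusted p = 1.66e-05), with a narrow range in each group and a wide gap between them. Factor X (F10), the protease that converts prothrombin to thrombin, measured 6.61, 6.68 and 6.68 against 9.22, 9.77 and 10.12, and was 8.28-fold lower (-3.05 ± 0.22, limma adjusted p = 0.000117). Factor V (F5), the cofactor of factor X, measured 5.26, 5.12 and 5.01 against 6.70, 7.02 and 6.20, and was 2.85-fold lower (-1.51 ± 0.21, limma adjusted p = 0.00245). All Scf-GFP+ arrays lay below all whole marrow arrays for each of these 3 genes. Of markers of cells that are known to make these factors, 6 of 7 monocyte and macrophage genes were called lower, with means of 6.07 to 6.17 in Scf-GFP+ cells and 8.56 to 8.72 in whole marrow. Of 6 megakaryocyte and platelet genes 1, Pf4, was called lower, and the list means were 6.38 to 6.62 against 7.24 to 7.88. Their part in the lower values of F13a1, F10 and F5 was not tested.

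The initiators of clotting and the fibrinogen chains gave small differences. Tissue factor (F3), the membrane protein that starts coagulation, measured 5.27, 5.41 and 5.04 against 6.02, 5.75 and 5.98. It passed adjusted p but was only 1.60-fold lower (-0.68 ± 0.14, limma adjusted p = 0.0121). Its groups did not overlap. Its ligand factor VII (F7), a neighbour of F10 on chromosome 8, differed by -0.29 ± 0.19 (limma adjusted p = 0.303), with overlapping groups. Prothrombin (F2) differed by -0.27 ± 0.10 (limma adjusted p = 0.102). Fibrinogen is encoded by Fga, Fgb and Fgg, which lie side by side on chromosome 3, and their differences were 0.07, -0.20 and -0.07, none of them called. Factor VIII (F8), which endothelial cells make, measured 6.64, 5.73 and 6.19 against 6.05, 6.09 and 6.00, so its Scf-GFP+ arrays lay on both sides of whole marrow (0.14 ± 0.22, limma adjusted p = 0.682). The differences of F9, F11, F12 and F13b, which encode factors IX, XI and XII and the carrier chain of factor XIII, lay between -0.19 and -0.03. Thrombin acts on cells through its receptor F2r, which measured 7.33, 7.32 and 7.28 against 7.85, 8.08 and 7.83. It was 1.53-fold lower (-0.61 ± 0.11, limma adjusted p = 0.00721), below the 2-fold threshold, and its groups did not overlap.

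Of the 5 anticoagulants other than serpins, 2 were called higher and none lower. Protein S (Pros1), a vitamin K-dependent cofactor of protein C and of Tfpi and also a ligand of the receptors that clear dying cells, measured 9.92, 10.40 and 9.75 in Scf-GFP+ cells and 5.35, 5.65 and 5.66 in whole marrow. It was 22.2-fold higher (4.48 ± 0.19, limma adjusted p = 1.33e-05), and the replicates of each group lay close together. Tissue factor pathway inhibitor (Tfpi), which blocks the complex of tissue factor with factor VII, measured 9.79, 10.08 and 8.34 against 6.66, 6.54 and 6.60. It was 6.97-fold higher (2.80 ± 0.43, limma adjusted p = 0.00349), with Scf-GFP+ replicate 3 below the other two. Thrombomodulin (Thbd), which turns thrombin toward activating protein C, measured 9.12, 9.26 and 8.72 against 8.22, 8.21 and 7.75. At 1.97-fold (0.97 ± 0.20, limma adjusted p = 0.0113) it lay just under the fold threshold, and it was called when Scf-GFP+ replicate 3, whole marrow replicate 1 or whole marrow replicate 2 was left out (1.13, 1.05 and 1.05). Under the alternatives tried, its adjusted p lay between 0.00529 and 0.13. Tfpi2, a relative of Tfpi that inhibits plasmin, was 1.87-fold higher without being called (0.90 ± 0.14, limma adjusted p = 0.00411), and protein C (Proc) differed by -0.20 ± 0.11 (limma adjusted p = 0.218).

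Endothelial cells are a known source of Tfpi and Thbd, and endothelial markers differed among the Scf-GFP+ arrays. The mean of 8 endothelial genes was 6.99, 6.89 and 6.44 in Scf-GFP+ replicates 1 to 3 and 6.08 to 6.27 in whole marrow. Of the 8, Emcn and Cdh5 were called higher, and the other 6, among them Kdr, Tek and Vwf, were not. Cdh5 measured 7.54, 8.09 and 6.55 in Scf-GFP+ cells against 5.74 to 6.13, and was lowest in replicate 3, as Tfpi and Thbd were. The part of endothelial RNA in these differences was not tested. Replicate 3 also differed from replicates 1 and 2 in Xist. A term for that split leaves replicate 3 as the only Scf-GFP+ array compared with whole marrow, and Tfpi then differed by 1.74.

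**Figure D3:**
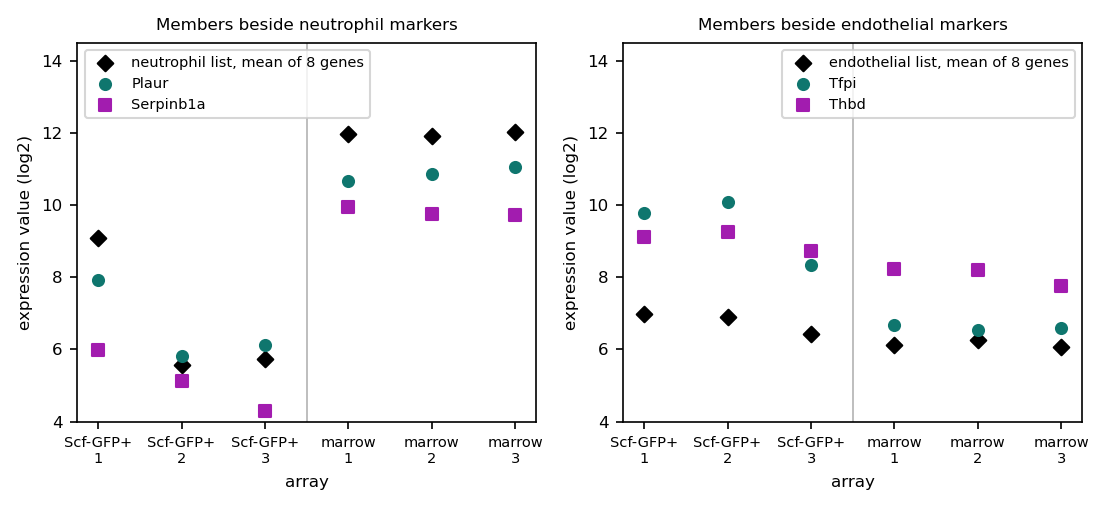
Log2 value on each of the 6 arrays (horizontal axis) of the mean of 8 neutrophil genes with Plaur and Serpinb1a (left) and of the mean of 8 endothelial genes with Tfpi and Thbd (right). On the left, Scf-GFP+ replicate 1 lies above replicates 2 and 3 in the marker mean and in both members, and on the right replicate 3 lies below replicates 1 and 2.

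In the plasminogen system, 1 of 4 members was called, and it was lower. The urokinase receptor (Plaur), which holds urokinase on the surface of neutrophils, monocytes and other cells, measured 7.94, 5.81 and 6.13 in Scf-GFP+ cells and 10.68, 10.86 and 11.06 in whole marrow. It was 18.9-fold lower (-4.24 ± 0.53, limma adjusted p = 0.00139), and the array of Scf-GFP+ replicate 1, with the highest neutrophil marker mean of its group, was also the highest of its group here. Without that array the difference was -4.89 ± 0.18 (limma adjusted p = 3.54e-05). Over the 8 members called lower, replicate 1 was the highest Scf-GFP+ array in 5 and the lowest in 2, F10 and Serpinb2. The part of neutrophil RNA in these differences was not tested. Urokinase itself (Plau), which activates plasminogen, measured 6.00, 5.73 and 5.86 against 6.27, 6.76 and 6.47, and was 1.55-fold lower without being called (-0.64 ± 0.16, limma adjusted p = 0.0238). Tissue plasminogen activator (Plat) differed by -0.18 ± 0.13 with a 95% interval from -0.50 to 0.13, and plasminogen (Plg), a liver product, by -0.09 ± 0.09. Plaur was thus the only gene called of these 4. The groups of Plau did not overlap either, and its 95% interval ran from -1.01 to -0.27, so a 2-fold difference lay within it. Serpins that act on this system are counted in their clades, among them Serpinb2, an inhibitor of urokinase that was called lower.

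The serpins of clades C to I are mostly single secreted proteins, and 3 of 9 were called, all of them higher. Serping1, the C1 inhibitor, blocks the first proteases of the complement cascade as well as plasma kallikrein and factor XII. It measured 12.39, 12.49 and 12.57 in Scf-GFP+ cells and 7.16, 6.78 and 6.56 in whole marrow. Serping1 was 50.3-fold higher (5.65 ± 0.17, limma adjusted p = 3.54e-06), more than any other member, and its difference stayed between 5.51 and 5.81 when each array was left out in turn. Serpinf1, pigment epithelium-derived factor, a secreted serpin with no known protease target that restrains vessel growth, measured 10.49, 10.85 and 10.9999 against 7.78, 8.30 and 8.40. It was 6.13-fold higher (2.62 ± 0.21, limma adjusted p = 0.000188). Its neighbour on chromosome 11, Serpinf2, which encodes the main plasmin inhibitor of plasma, differed by -0.15 ± 0.13 with overlapping groups.

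Serpinh1, a chaperone of the endoplasmic reticulum that helps collagen fold and inhibits no protease, measured 9.99, 10.13 and 9.90 against 8.20, 8.33 and 8.07. It was 3.50-fold higher (1.81 ± 0.12, limma adjusted p = 7.75e-05), and its groups were both tight. Antithrombin (Serpinc1) and heparin cofactor II (Serpind1), the thrombin inhibitors of plasma, differed by -0.15 ± 0.13 and 0.03 ± 0.18. Neuroserpin (Serpini1), an inhibitor of tissue plasminogen activator, was 1.81-fold lower without being called (-0.86 ± 0.21, limma adjusted p = 0.0245). It was called lower without whole marrow replicate 3 (-1.01, limma adjusted p = 0.0262, from 0.0151 to 0.15 over the alternatives). Serpine3 and Serpini2 differed by -0.08 and -0.07.

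Clade A holds plasma protease inhibitors and hormone carriers, and 1 of its 15 measured genes was called. Serpina3n, a secreted inhibitor that blocks granzyme B and cathepsin G in mice, measured 9.86, 10.20 and 11.86 in Scf-GFP+ cells and 5.86, 6.13 and 5.80 in whole marrow. It was 26.2-fold higher (4.71 ± 0.50, limma adjusted p = 0.000643), with replicate 3 above the other two. Without replicate 3 the difference was 4.10 ± 0.17 (limma adjusted p = 6.27e-05). A term for the Xist split leaves replicate 3 as the only Scf-GFP+ array compared with whole marrow, and gave 5.93. Vaspin (Serpina12), an adipose tissue serpin, measured 6.06, 5.51 and 7.26 against 4.92, 4.88 and 4.98, and replicate 3 was again the highest array. At 2.55-fold higher (1.35 ± 0.41) it missed the threshold (limma adjusted p = 0.0545, with values of 0.00197 to 0.131 in alternative fits), and it was called without Scf-GFP+ replicate 2 (1.73, limma adjusted p = 0.018). The other 13 genes of the clade, among them carriers of cortisol and thyroid hormone (Serpina6 and Serpina7), differed by -0.42 to 0.03. Serpina1 and Serpina3 genes have near-identical copies, so which copy an array row measured is uncertain.

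Clade B serpins stay mostly inside cells and guard them against their own proteases, and here 4 of 24 were called lower and 1 higher. Serpinb1a, an inhibitor of neutrophil elastase and cathepsin G that neutrophils carry in bulk, measured 5.97, 5.13 and 4.29 in Scf-GFP+ cells and 9.95, 9.75 and 9.72 in whole marrow. It was 25.6-fold lower (-4.68 ± 0.39, limma adjusted p = 0.000223), and its Scf-GFP+ arrays were spread over more than its marrow arrays. Without Scf-GFP+ replicate 1 the difference was -5.10. With the Xist term, which sets Scf-GFP+ replicate 3 alone against whole marrow, it was -5.52. Serpinb2, an inhibitor of urokinase made by stimulated macrophages, measured 4.59, 4.61 and 4.60 against 7.38, 6.46 and 7.30, and was 5.44-fold lower (-2.44 ± 0.25, limma adjusted p = 0.000516). Its neighbour on chromosome 1, Serpinb10, a serpin that in humans is found in haematopoietic cells, measured 3.96, 3.71 and 3.75 against 6.20, 4.70 and 6.71. It was 4.17-fold lower (-2.06 ± 0.48, limma adjusted p = 0.0203). The call of Serpinb10 was lost when any array other than whole marrow replicate 2 was left out, with adjusted p values from 0.05 to 0.0716 in those fits (0.000517 to 0.122 over every alternative in which it was tested). Its marrow arrays were the most uneven of the called members.

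Paralogous members of clade B on chromosome 13 moved in opposite directions. Serpinb6a, whose human counterpart inhibits cathepsin G, measured 7.73, 8.18 and 8.18 in Scf-GFP+ cells and 6.17, 6.46 and 7.11 in whole marrow, and was 2.74-fold higher (1.45 ± 0.26, limma adjusted p = 0.00727). Its paralogue Serpinb6b measured 6.03, 6.15 and 5.74 against 8.28, 8.54 and 7.89, and was 4.81-fold lower (-2.27 ± 0.20, limma adjusted p = 0.000255). Neither gene had overlapping groups, but the call of Serpinb6a was lost with treat, a test against 1.5-fold. Serpinb9, an inhibitor of granzyme B, was 1.81-fold higher without being called (0.86 ± 0.19, limma adjusted p = 0.0182). The other Serpinb6 and Serpinb9 genes measured, 7 in all, are close copies whose rows may share signal, and none was called.

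**Figure D4:**
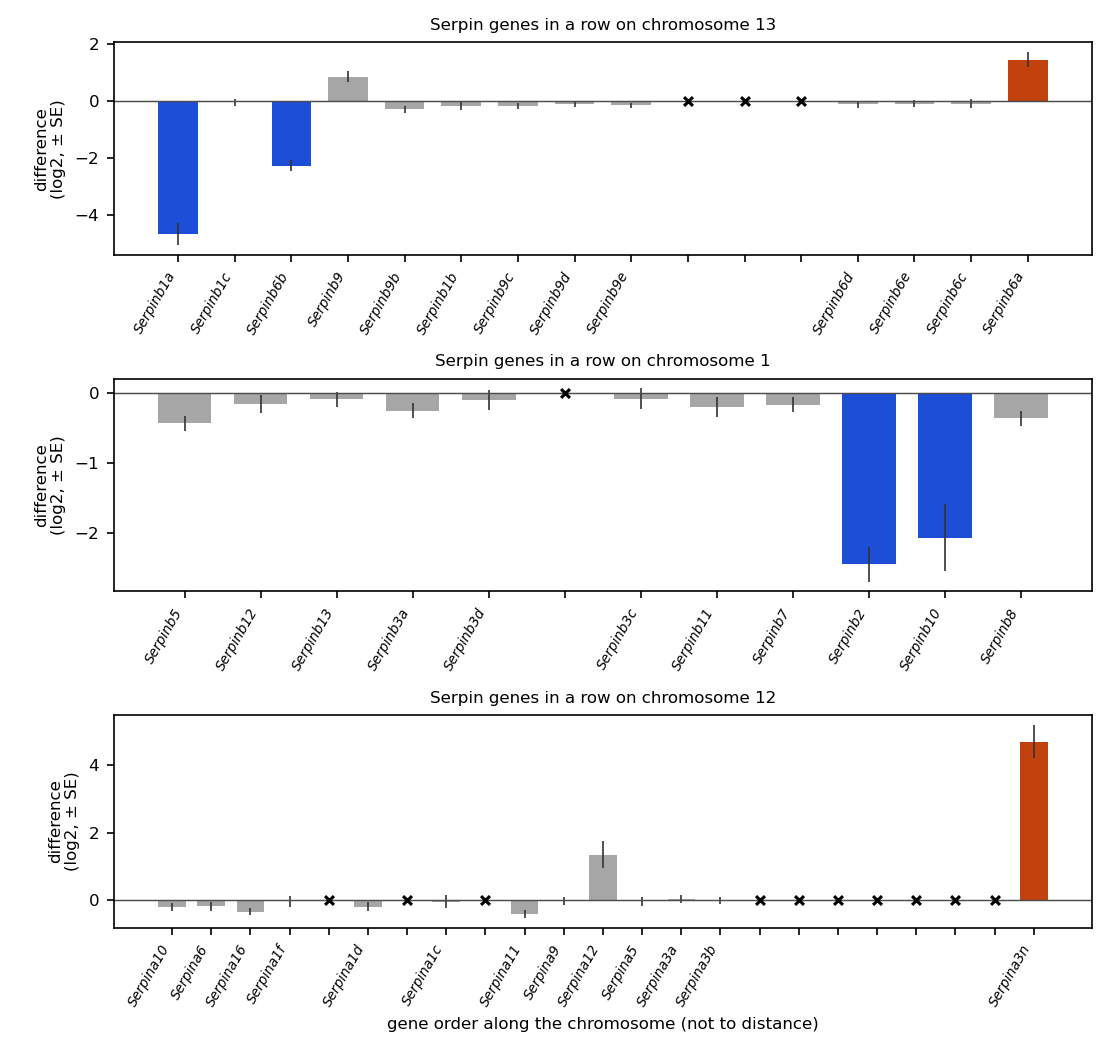
Difference on the log2 scale (vertical axis, ± SE, n = 3 arrays per group) of the serpin genes that follow each other on chromosomes 13, 1 and 12, in gene order. Orange and blue bars were called higher and lower, grey bars were not called, and crosses mark positions whose gene was not analysed here. Apart from Serpinb9 and Serpina12, genes that were not called lie near 0, and the row on chromosome 13 begins with a lower gene and ends with a higher one.

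By gene order in RefSeq (GRCm38.p6), the chromosome 13 row holds 16 serpin genes, of which 13 were measured, 1 called higher and 2 lower. The chromosome 1 row holds 12, of which 11 were measured, and its 2 called genes, Serpinb2 and Serpinb10, are adjacent and both lower. The chromosome 12 row holds 23 protein-coding serpin genes, of which 13 were measured, and Serpina3n at its end was the call there. The neighbours F7 and F10, and likewise Serpinf1 and Serpinf2, each had 1 called gene beside 1 that was not.

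The sequences upstream of the members that differed most, and of the Serpinb6a and Serpinb6b pair, are given to show what lies before genes that moved in opposite directions. RefSeq's promoter table (GRCm38.p6) held 60 of the 72 members. The windows are the 250 bases before the start of transcription, 5′ to 3′ on the gene's strand, in lower case with motif matches in capitals. Motifs were searched on both strands. The STAT-type motif, TTCNNNGAA, occurs in 7.02% of the 32851 windows in the table. The PU.1-type motif, GAGGAA, occurs in 23.3% of them. The GATA-type motif, AGATAA, occurs in 9.99%, and the palindromic EBF motif in 0.779%. No match overlapped another in the windows shown. The first set holds the members called higher with the largest differences among those with an entry, Serpina3n (chr12:104406458-104406707, plus strand) and Pros1 (chr16:62854057-62854306, plus strand).
Serpina3n: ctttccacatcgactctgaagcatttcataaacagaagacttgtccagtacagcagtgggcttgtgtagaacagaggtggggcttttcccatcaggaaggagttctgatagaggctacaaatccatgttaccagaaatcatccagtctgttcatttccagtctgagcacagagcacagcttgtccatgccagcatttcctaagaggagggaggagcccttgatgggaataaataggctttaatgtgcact
Pros1: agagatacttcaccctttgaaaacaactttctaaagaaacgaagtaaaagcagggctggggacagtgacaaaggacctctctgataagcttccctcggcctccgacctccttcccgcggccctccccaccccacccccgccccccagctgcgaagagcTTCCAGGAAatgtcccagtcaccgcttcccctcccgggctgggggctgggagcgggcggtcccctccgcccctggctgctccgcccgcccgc
Serpina3n had no match, and Pros1 had 1 STAT-type match, TTCCAGGAA, beginning 92 bases before the start.

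The second set holds the corresponding members called lower, Plaur (chr7:24462233-24462482, plus strand) and F13a1, which has 2 annotated starts (chr13:37050245-37050494, minus strand, and chr13:37049214-37049463, minus strand).
Plaur: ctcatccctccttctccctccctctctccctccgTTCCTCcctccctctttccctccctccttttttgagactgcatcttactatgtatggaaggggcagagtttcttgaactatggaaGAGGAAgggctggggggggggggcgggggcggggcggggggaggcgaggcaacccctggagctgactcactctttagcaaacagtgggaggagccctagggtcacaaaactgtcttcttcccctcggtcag
F13a1, first start: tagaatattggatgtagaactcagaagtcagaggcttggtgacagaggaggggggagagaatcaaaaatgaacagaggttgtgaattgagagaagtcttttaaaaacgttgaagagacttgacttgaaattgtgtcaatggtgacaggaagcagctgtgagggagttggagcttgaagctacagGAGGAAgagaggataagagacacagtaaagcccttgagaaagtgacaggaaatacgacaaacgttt
F13a1, second start: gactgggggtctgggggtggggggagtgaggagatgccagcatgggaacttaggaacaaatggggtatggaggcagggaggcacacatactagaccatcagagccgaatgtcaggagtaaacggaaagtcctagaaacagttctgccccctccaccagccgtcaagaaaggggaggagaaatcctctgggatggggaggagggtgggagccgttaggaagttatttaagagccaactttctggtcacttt
Plaur had 2 PU.1-type matches, and F13a1 had 1 before its first start and none before its second.

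The third set is the pair of paralogues, Serpinb6a with 2 annotated starts (chr13:34002795-34003044, minus strand, and chr13:33936084-33936333, minus strand) and Serpinb6b (chr13:32965011-32965260, plus strand).
Serpinb6a, first start: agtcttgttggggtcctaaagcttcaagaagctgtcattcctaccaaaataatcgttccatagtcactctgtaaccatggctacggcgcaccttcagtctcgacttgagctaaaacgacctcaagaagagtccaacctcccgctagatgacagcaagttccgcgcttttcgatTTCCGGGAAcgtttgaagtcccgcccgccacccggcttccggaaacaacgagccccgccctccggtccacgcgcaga
Serpinb6a, second start: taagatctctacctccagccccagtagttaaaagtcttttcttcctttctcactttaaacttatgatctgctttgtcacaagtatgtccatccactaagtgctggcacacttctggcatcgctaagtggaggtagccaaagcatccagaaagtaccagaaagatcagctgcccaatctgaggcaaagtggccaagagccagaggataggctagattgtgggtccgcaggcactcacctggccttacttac
Serpinb6b: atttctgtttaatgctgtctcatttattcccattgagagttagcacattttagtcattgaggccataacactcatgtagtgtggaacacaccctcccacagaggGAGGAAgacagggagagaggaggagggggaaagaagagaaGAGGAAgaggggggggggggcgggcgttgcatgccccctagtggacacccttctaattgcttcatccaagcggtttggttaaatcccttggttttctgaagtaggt
Serpinb6a had 1 STAT-type match before its first start, TTCCGGGAA, and Serpinb6b had 2 PU.1-type matches. In a global alignment the Serpinb6b window was identical to the Serpinb6a windows at 40.5% and 39.8% of aligned positions. No unrelated windows were aligned for comparison, so these shares do not show whether the windows are related. Over all called members with an entry, PU.1-type matches were found in 3 of 7 called lower (F13a1, Plaur and Serpinb6b) and 1 of 6 called higher (Tfpi), beside 25.9% of all genes in the table. STAT-type matches were found in 1 of 7 called lower and 2 of 6 called higher, beside 8.13% of all genes. GATA-type matches were found in 2 of each, beside 11.4% of all genes, and EBF matches in none. These are matches of letters, described without a test.

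Genes that act on the members gave a fuller picture of the system. Of 16 other haemostasis genes measured, 4 were called higher and none lower. Kininogen, the carrier of the contact system, is encoded in mice by Kng1 and Kng2, which were higher by 6.79 ± 0.18 and 5.07 ± 0.14. Gas6, a vitamin K-dependent relative of protein S, was higher by 5.62 ± 0.27, and the transglutaminase Tgm2 by 1.18 ± 0.17. The limma adjusted p of these 4 lay between 2.55e-06 and 0.00301. Kng1 and Kng2 are close copies, so signal may be shared between their rows. Gp9 (-0.98 ± 0.20), F2rl2 (-0.91 ± 0.15) and the platelet integrin Itga2b (-0.52 ± 0.11) were lower with groups that did not overlap. They passed adjusted p (limma adjusted p = 0.011, 0.00422 and 0.0131) but stayed under 2-fold. Von Willebrand factor (Vwf, -0.10) and the protein C receptor (Procr, 0.32) were not called.

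Protein S needs vitamin K-dependent carboxylation before it works. Of 7 genes of the vitamin K cycle and of factor secretion, 3 were called higher and none lower. The carboxylase Ggcx measured 8.35, 8.60 and 8.49 in Scf-GFP+ cells against 7.19, 7.32 and 6.01 (1.65 ± 0.34, limma adjusted p = 0.0126, up to 0.0942 over the alternatives). The reductase Vkorc1 was higher by 1.55 ± 0.18, and Lman1, a cargo receptor for factors V and VIII, by 1.32 ± 0.13. The other reductases of the list, Vkorc1l1 and Nqo1, differed by -0.41 ± 0.16 and -0.68 ± 0.43 and were not called (limma adjusted p = 0.11 and 0.305). No called member among the clotting factors was higher, so of the vitamin K-dependent members F2, F7, F9, F10, Proc and Pros1, Pros1 was the one called higher and F10 the one called lower.

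Of 11 genes for plasminogen binding and serpin clearance, 6 were called higher and none lower. Lrp1, the main clearance receptor for protease-serpin complexes, was higher by 2.51 ± 0.21, the related receptor Vldlr by 1.89 ± 0.36, the collagen receptor Mrc2, which can associate with Plaur, by 1.83 ± 0.12, and the receptor chaperone Lrpap1 by 1.79 ± 0.25. Their limma adjusted p lay between 7.08e-05 and 0.00855. Anxa2 and S100a10, which together bind plasminogen at the cell surface, differed by -0.16 and -0.09 and were not called. Among receptors of the Lrp1 family, Lrp8 differed by -0.97 ± 0.12 with groups that did not overlap (limma adjusted p = 0.00111), just under the fold threshold, and Lrp2 differed by 0.02 ± 0.10 (limma adjusted p = 0.909).

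Proteases that serpins inhibit differed in both directions, with 4 of 22 measured genes called higher and 8 called lower. Those lower included the granule proteases Mcpt8 (-5.13 ± 0.23), Ctsg, cathepsin G (-5.03 ± 0.15), and Elane, neutrophil elastase (-4.14 ± 0.14), and the macrophage protease Ctss, cathepsin S (-4.44 ± 0.37). Their limma adjusted p lay between 3.47e-06 and 0.000208. Those higher were the complement protease C1s1 (6.73 ± 0.18), the matrix protease Htra1 (3.61 ± 0.30), Ctsl, cathepsin L (2.38 ± 0.12), and C1ra (1.87 ± 0.22), the complement protease that activates C1s. Their limma adjusted p lay between 2.76e-06 and 0.00104. Of the complement proteases that Serping1 inhibits, C1s1 and C1ra were thus higher, whereas Masp1 and Masp2 differed by -0.15 ± 0.12 and 0.04 ± 0.12 and were not called (limma adjusted p = 0.43 and 0.843). Of the granule proteases that Serpinb1a inhibits, Elane, Ctsg and Prtn3 (-2.02 ± 0.14, limma adjusted p = 0.000102) were called lower, as Serpinb1a was.

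Other families of protease inhibitors likewise held genes of both directions. Of 20 measured, 3 were called higher and 6 lower. A2m, the broad inhibitor alpha-2-macroglobulin, was higher by 4.43 ± 0.13, the membrane inhibitor of metalloproteinases Reck by 2.27 ± 0.16, and cystatin C (Cst3) by 1.13 ± 0.14. The limma adjusted p of these 3 lay between 3.21e-06 and 0.00119. The stefin Stfa3 was lower by -4.82 ± 1.01, with 8.05 in Scf-GFP+ replicate 1 and 4.08 and 4.27 in replicates 2 and 3 against 10.19 to 10.48 in whole marrow, Wfdc17 by -4.50 ± 0.50, the leukocystatin Cst7 by -3.80 ± 0.32, and Slpi, a secreted inhibitor of neutrophil elastase, by -3.10 ± 0.24. Their limma adjusted p lay between 0.000144 and 0.0133.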

How the data were processed

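The authors deposited log2 values for 6 Affymetrix Mouse Gene 1.0 ST arrays. RMA, affy and limma are named per the submitters' processing notes, without versions or roles, and the array annotation's build is not given in the sources used here. Of 28940 rows, 21789 had 1 gene symbol, and the row with the highest mean stood for a gene. Symbols were updated through Entrez identifiers (RefSeq, GRCm38.p6). The values were used as they stand. Groups were compared with limma 3.58.1 (lmFit, eBayes) in R 4.3.3, without covariates, with Benjamini-Hochberg adjustment over 19938 genes. A call needs an adjusted p below 0.05 and 2-fold. Differences are Scf-GFP+ minus whole marrow, with moderated SE. The fit was tested on simulated data.

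Every called member is named. Of the others, those named are clotting, anticoagulant, plasminogen and receptor genes, serpins near a threshold or of small clades. From each further list up to 4 called genes per direction are named. F2rl2, Gp9, Lrp2, Lrp8, Masp1, Masp2, Nqo1, Prtn3 and Vkorc1l1 were added after their values were seen. Itga2b, Vwf, Procr, Anxa2 and S100a10, which were not called, are also named outside this rule. Members, roles and lists were chosen with earlier results of these data known. Same-numbered replicates are not said to share a source, and their deviations correlated at -0.06, -0.02 and 0.07. No label ties an array to an animal of its own. The p-values thus cover only how far these samples vary, which apart from the sex-linked split among the Scf-GFP+ arrays may be technical variation. The number of arrays limits precision. Alternatives were a dim-gene filter, 2 rescalings, the mean of a gene's rows, another variance model, a replicate block, a term for the Xist split, leaving out each array, and 2 other call rules.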

Additional observations from a re-analysis of the deposited data

How the results depend on the processing

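Counts of members called higher ranged from 7 to 8, and of those called lower from 7 to 8, when each array was left out. Leaving out the dimmest 30% of genes removed 3 called members from the test and left 5 called lower. With adjusted p alone 15 members were lower, and over all genes 2758 were higher and 2635 lower instead of 1796 and 1574. With treat against 1.5-fold, 6 members were higher, Serpinb6a no longer among them, and 7 lower. With the replicate block 8 members were called higher and 8 lower, Serpina12 being added (limma adjusted p = 0.0468), and no other member's call changed under the block. Of 15 called members, 11 were called in all 15 alternatives, and 13 in all but the dim-gene filter. The term for the Xist split leaves Scf-GFP+ replicate 3 as the only array of its group compared with whole marrow. With this covariate the differences were 2.34 for Serpina12, 1.18 for Tfpi2, 1.26 for Serpinb9 and -2.12 for Serpinb10. Calls under this term thus rest on that array. Among the 43 members recomputed one by one, signs turned in 7, none of them called. With quantile normalization F11 was 0.0642, F13b 0.0479, Fgg 0.0418 and Serpini2 0.0302, with the Xist term F13b was 0.0665, and with median centring Serpind1 was -0.0026. Over fits without 1 array, F8 ranged from -0.0843 to 0.369, Serpind1 from -0.107 to 0.167, F13b from -0.114 to 0.0259, F12 from -0.111 to 0.0317 and Serpini2 from -0.184 to 0.0865. Serpins outside the 43 also changed sign in fits without 1 array, among them Serpina3a (-0.037 to 0.113) and Serpina5 (-0.184 to 0.0602). The cause of these changes was not tested.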
